A study of Sus scrofa with 8 samples.

Results

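Aggrecan, versican and the genes that tie them to hyaluronan were followed across 8 RNA-seq libraries of condylar cartilage cells from the pig temporomandibular joint. The set holds 8 genes of the 18898 in the authors' deposited table: ACAN, VCAN, the link proteins HAPLN1 and HAPLN3, the receptor CD44 and the synthases HAS1, HAS2 and HAS3. The table lists 7 of them under these symbols, and the row named SHAS2 (ENSSSCG00000005992) was taken as HAS2 through its gene identifier. All samples are labelled as wild type (WT). The 4 control samples carry the treatment label Control, and the 4 osteoarthritis samples come from a model in which a 5.0 mm hole was punched in the joint disc and no disc attachment was cut. The labels attach the surgery description to the control samples as well, so what was done to the control joints is not clear from them. The sources used here do not give the pigs' age, sex, breed or time after surgery, or say whether controls had a sham operation. The titles call the samples biological replicates without stating that each came from its own animal, so a p-value here reflects variation among these samples, which may in part be technical.

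Aggrecan is the large chondroitin sulphate proteoglycan that makes cartilage resist compression, and many aggrecan molecules sit on a single thread of hyaluronan. Link proteins lock each aggrecan to that thread, CD44 holds the thread at the cell surface, and hyaluronan synthases in the plasma membrane spin it out of sugar nucleotides. Versican is a relative of aggrecan with the same hyaluronan-binding end, known from looser and developing connective tissue and from fibrous parts of joints.

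In the RefSeq annotation of the build Sscrofa11.1, the proteoglycan and link protein genes lie in neighbouring pairs. ACAN (ENSSSCG00000001832) spans chr7:54449830-54520606 and HAPLN3 (ENSSSCG00000030597) spans chr7:54519790-54537429, so that the 2 gene spans overlap by 817 bases. VCAN (ENSSSCG00000014136) spans chr2:91682177-91811674 and HAPLN1 (ENSSSCG00000014137) spans chr2:91857495-91935485, with 45820 bases and 1 annotated pseudogene between them. CD44 (ENSSSCG00000013297) lies on the same chromosome at chr2:25788699-25884209. The synthase genes are apart from each other, with HAS1 (ENSSSCG00000003239) at chr6:58303274-58313486, HAS2 at chr4:17583154-17613524 and HAS3 (ENSSSCG00000049263) at chr6:17844974-17870331.

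Library totals ran from 11354200 to 25412939 estimated counts. Control 2 stood apart in its TMM scaling factor, 0.424 against 0.873 to 1.55 in the other 7 libraries. Controls 1 and 3 were the closest pair, with a root mean square difference of 0.55 in log2 CPM against 0.66 to 1.38 for the other pairs within a group, while by chi-square per degree of freedom osteoarthritis replicates 1 and 2 were nearest (29.7, against 30.1 for controls 1 and 3). Neither pair agreed within sampling noise, so neither was merged as a repeated deposit of the same library. Whether both libraries of a pair came from 1 animal cannot be told from these values. The 13 chondrocyte markers were all detected, with a summed level of 7198 to 15489 CPM in controls and 17695 to 130640.0 CPM in osteoarthritis, lowest of the latter in replicate 3. Basal epithelium markers (6 of 7 in the table) summed to 88.1 to 361 CPM in controls and 1.29 to 2.07 CPM in osteoarthritis. Osteoclast markers (6 of 7) were at 11.2 and 19.1 CPM in controls 1 and 3, 1433 and 1882 CPM in controls 2 and 4, and 1311 to 2786 CPM in osteoarthritis. Macrophage markers (7 of 7) were at 26.8 and 28.8 CPM in controls 1 and 3, 601 and 599 CPM in controls 2 and 4, and 147 to 489 CPM in osteoarthritis, highest of the latter in replicate 3. Summed markers of osteoblasts (354 to 2052 against 2374 to 3442 CPM) and of synovial lining (1256 to 2515 against 2847 to 4404 CPM) did not overlap between groups, while those of endothelium, fibrous tissue, smooth muscle, skeletal muscle and erythroid cells did. The osteoblast sum was 354 and 379 CPM in controls 1 and 3, and 2044 and 2052 CPM in controls 2 and 4, near the lowest osteoarthritis value. None of the markers in the table was at 0 over a whole group.

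Within a library, expressed per length as TPM, ACAN was the highest of the 8 genes and HAPLN1 the next in all 8 libraries. Their median TPM was 279 and 104 in controls and 2736 and 1116 in osteoarthritis. VCAN followed with medians of 15.5 and 48.5 TPM, and CD44 with 8.98 and 32.8 TPM. HAPLN3 had 4.92 and 32.2 TPM, and was above VCAN in osteoarthritis replicates 1 and 2 only. HAS1 and HAS2 were at 1.07 and 0.61 TPM in controls and 2.60 and 8.91 TPM in osteoarthritis. TPM is lowered in every gene by short RNAs, since miscellaneous RNAs and ribozymes held 49.4% to 57.1% of TPM in controls and 30.9% to 39.3% in osteoarthritis. Levels are therefore compared between libraries as TMM-scaled CPM, and TPM is used to set genes against each other within a library.

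**Figure D1:**
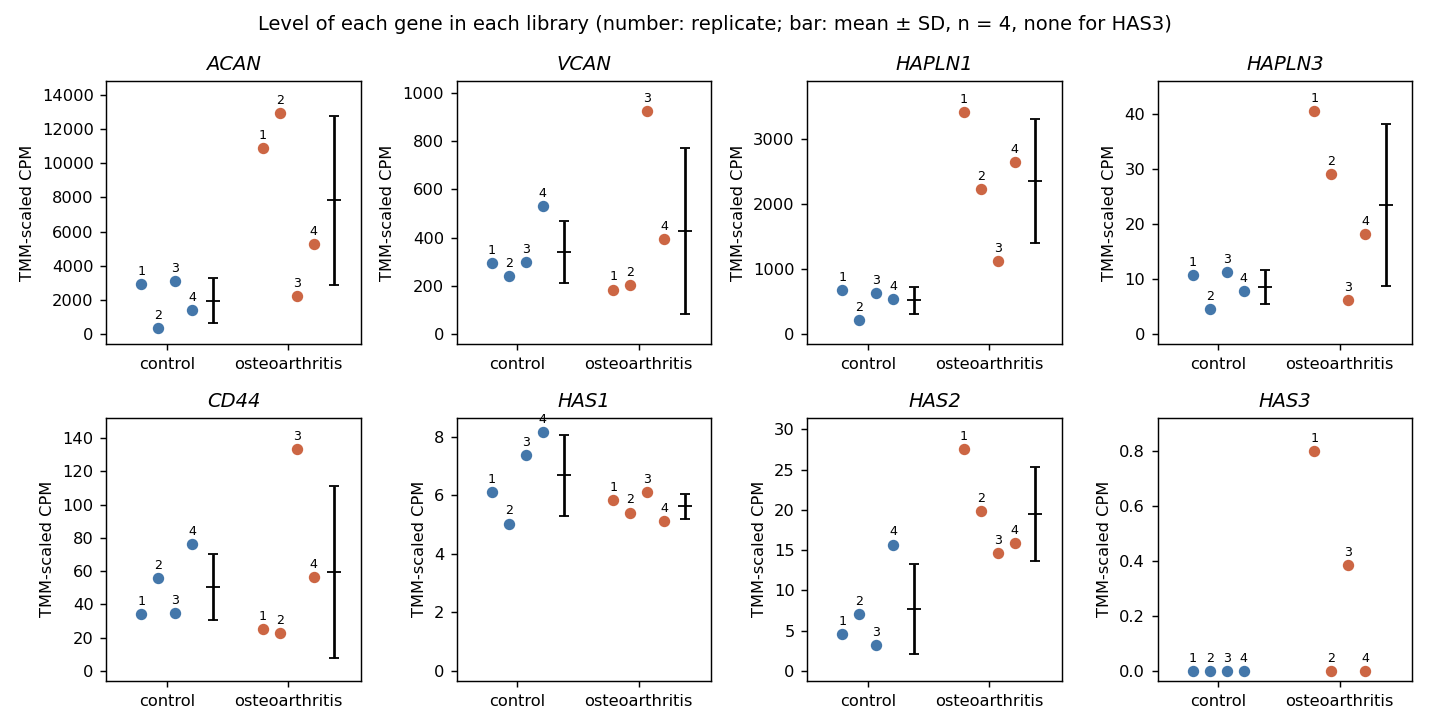
Each panel gives the TMM-scaled CPM (vertical axis, linear) of 1 gene in the 4 control and 4 osteoarthritis libraries, with the replicate number above each point and the mean ± SD (n = 4) beside it, except for HAS3. HAPLN1 is the gene whose groups do not overlap, at 222 to 678 CPM against 1129 to 3418 CPM, and osteoarthritis replicate 3 is the highest point for VCAN and CD44.

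Of the 8 genes, 7 had enough counts to be tested and HAS3 did not. By edgeR's quasi-likelihood test 0 of the 7 changed at an adjusted p under 0.05, where 99 of 16020 genes tested (0.618%) did, 36 higher (0.225%) and 63 lower (0.393%) in osteoarthritis. The split was 186 higher and 28 lower when libraries were scaled by size alone, a setting under which the median over all genes is 0.65 in log2 in place of 0.0049. The number of changed genes was 31, 52, 28 and 152 without controls 1 to 4 in turn, and 17, 33, 90 and 14 without osteoarthritis replicates 1 to 4. An unadjusted p under 0.05 was reached by 4 of the 7, all higher in osteoarthritis, where 7.52% of all genes were higher at that level. DESeq2 called 1 of the 7, HAPLN1, with 5.22% of all genes called, and limma-voom called 0, with 0.743% called.

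ACAN, the aggrecan core protein gene, was measured higher in 3 of the 4 osteoarthritis libraries than in any control, without passing the test. It was at 2912, 343, 3116 and 1429.7 CPM in controls 1 to 4 and at 10913, 12931, 2223 and 5253 CPM in osteoarthritis replicates 1 to 4. Control 2 was the lowest library by a wide margin, and osteoarthritis replicate 3 lay within the control range, so the groups overlapped. Its log2 fold change was 2.01 ± 0.78 (SE; edgeR adjusted p = 0.27), and 1.63 to 2.30 with any 1 library left out. Between the lowest and the highest library ACAN spanned 37.8-fold, the widest range of the 7 tested genes. In bulk RNA, fewer cells of a type and less RNA per cell cannot be told apart. The chondrocyte markers summed lowest in control 2 among controls and in replicate 3 among osteoarthritis libraries, the same libraries in which ACAN was lowest. The sizes differed, with a sum of 7198 CPM in control 2 against 9418 and 9770 CPM in controls 1 and 3. ACAN was at 343 CPM in control 2 against 2912 and 3116 CPM in controls 1 and 3. Control 4 went the other way, with the highest chondrocyte sum of the controls (15489 CPM) and less ACAN than controls 1 and 3. The part of these markers in the result was not tested.

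Aggrecan transcripts did not keep a fixed proportion to those of COL2A1, which encodes the main collagen of cartilage. The TPM ratio of ACAN to COL2A1 was 0.387 and 0.394 in controls 1 and 3, and 0.060 and 0.0999 in controls 2 and 4. In osteoarthritis it was 0.0869, 0.118, 0.142 and 0.163 in replicates 1 to 4. Controls 1 and 3 thus stood above all other libraries, and the remaining controls lay below or within the osteoarthritis values.

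VCAN, which encodes versican, showed no difference between groups beyond the spread of the samples. It was at 296, 239.5, 300.4 and 531 CPM in controls 1 to 4 and at 185, 203, 924 and 395 CPM in osteoarthritis replicates 1 to 4. Osteoarthritis replicate 3 was the highest library and replicates 1 and 2 were the lowest, so the osteoarthritis group reached beyond the controls on both sides. The log2 fold change was 0.32 ± 0.53 (SE; edgeR adjusted p = 0.82), and it was -0.41 without osteoarthritis replicate 3.

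The TPM ratio of ACAN to VCAN, which is independent of the scaling between libraries, was 21.9, 3.51, 23.5 and 6.22 in controls 1 to 4. In osteoarthritis replicates 1 to 4 it was 129, 136, 5.62 and 31.5. Aggrecan transcripts outnumbered those of versican in every library, by the most in osteoarthritis replicates 1 and 2. Replicate 3 lay below controls 1, 3 and 4, and replicate 4 above all controls. The geometric mean was 10.3 in controls and 42.0 in osteoarthritis, a mean difference of 2.03 in log2 (group SD of 1.36 and 2.17, n = 4 each). Permuting the group labels over all 70 assignments (exact permutation test, two-sided) gave p = 0.14, where the smallest p possible is 0.029. Without osteoarthritis replicate 3 the difference was 2.99 in log2 and the groups no longer overlapped, with p = 0.057, the smallest that 35 assignments allow in the exact permutation test. It was 1.46, 1.49 and 1.51 without osteoarthritis replicate 2, osteoarthritis replicate 1 or control 2, each with p = 0.29 in the same exact permutation test. Replicate 3 had the lowest chondrocyte and the highest macrophage marker sums of the osteoarthritis libraries, and their part in the ratio was not tested.

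HAPLN1, the cartilage link protein that clasps aggrecan to hyaluronan, was the gene of the set whose groups did not overlap. It was at 678, 222, 635 and 542 CPM in controls 1 to 4 and at 3418, 2241, 1129 and 2644 CPM in osteoarthritis replicates 1 to 4. Every osteoarthritis library was above every control, as was the case for 5.69% of all genes tested. The log2 fold change was 2.18 ± 0.48 (SE; edgeR adjusted p = 0.088), short of the threshold. It was called by DESeq2 (2.16, DESeq2 adjusted p = 9.8e-05) and when libraries were scaled by size alone (2.64, edgeR adjusted p = 0.048; 1.34% of genes called), a setting that shifts all genes upward. The summed chondrocyte, osteoblast and synovial lining markers separated the groups in the same direction as HAPLN1, and basal epithelium markers in the opposite one. COL2A1, which makes up most of the chondrocyte sum, was at 5012 to 11919 CPM in controls and 12816 to 102379 CPM in osteoarthritis (log2 fold change 2.95 ± 0.79, edgeR adjusted p = 0.14). The part of these markers in the result was not tested.

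HAPLN3, which encodes a more widely expressed link protein, was measured higher in 3 of the 4 osteoarthritis libraries than in any control, without passing the test. It was at 10.7, 4.57, 11.3 and 7.84 CPM in controls 1 to 4 and at 40.6, 29.1, 6.15 and 18.2 CPM in osteoarthritis replicates 1 to 4. As for ACAN, 3 osteoarthritis libraries were above all controls and replicate 3 was within the control range. Against controls the log2 fold change was 1.44 ± 0.53 (SE; edgeR adjusted p = 0.25). Its counts, 457 over the controls and 1894 over osteoarthritis, stand beside 104861 and 602211 for ACAN. The gene spans overlap, and the sources used here do not say how strand was treated in the counting, so reads of the shared stretch cannot be told apart with certainty.

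The proportion of aggrecan to HAPLN1 transcripts overlapped between the groups. The TPM ratio of ACAN to HAPLN1 was 3.16, 1.21, 3.59 and 1.94 in controls 1 to 4 and 2.35, 4.13, 1.43 and 1.49 in osteoarthritis replicates 1 to 4. Geometric means were 2.27 and 2.13, a log2 difference of -0.094 with a group SD of 0.71 in both, while single libraries differed by up to 3.40-fold. The ratio of HAPLN1 to HAPLN3 was 20.8, 14.8, 17.6 and 25.5 in controls and 27.7, 22.0, 85.0 and 58.7 in osteoarthritis replicates 1 to 4. Replicates 3 and 4 stood above the other 6 libraries, and these ratios were not tested.

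CD44, the main cell-surface receptor for hyaluronan, had a profile close to that of VCAN and far from that of ACAN. It was at 34.4, 55.9, 34.9 and 76.4 CPM in controls 1 to 4 and at 25.1, 22.5, 133 and 56.6 CPM in osteoarthritis replicates 1 to 4. As for VCAN, replicates 1 and 2 of osteoarthritis were the lowest libraries and replicate 3 the highest. The log2 fold change was 0.24 ± 0.57 (SE; edgeR adjusted p = 0.88), and -0.55 without osteoarthritis replicate 3. The TPM ratio of VCAN to CD44 lay between 1.38 and 1.79 in 7 libraries and was 0.87 in control 2. It varied 2.06-fold over all 8, against 38.7-fold for ACAN to VCAN and 77.8-fold for ACAN to CD44. Leukocytes and osteoclasts also carry CD44. Macrophage markers were high in controls 2 and 4 and in osteoarthritis replicate 3, and CD44 was above 50 CPM in those libraries and in osteoarthritis replicate 4. Osteoclast markers were highest in osteoarthritis replicates 1 and 2, at 2786 and 2763 CPM, where CD44 was lowest. The part of these cells in the level of CD44 was not tested.

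**Figure D2:**
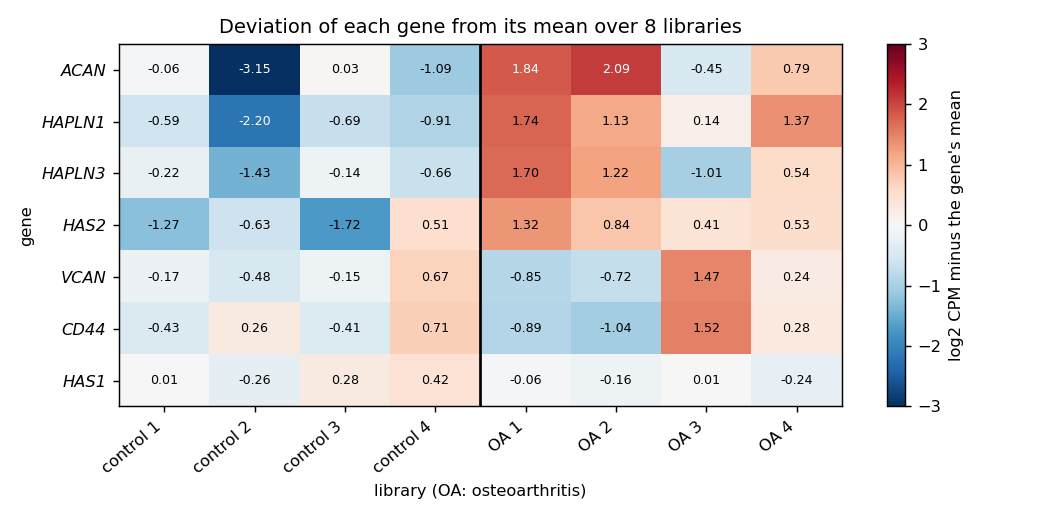
The colour and the number in each cell give log2 CPM minus the mean of that gene over the 8 libraries (columns), for the 7 tested genes (rows). ACAN, HAPLN1 and HAPLN3 have their lowest value in control 2, while VCAN and CD44 share their highest value in osteoarthritis replicate 3, at 1.47 and 1.52.

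Likeness of the profiles was measured as the root mean square difference of these centred log2 values over the 8 libraries, among 9687 named genes whose average log2 CPM was 2 or more. The genes closest to ACAN were PRELP (0.40) and FMOD (0.42), which encode small leucine-rich matrix proteins, followed by ISLR (0.46) and SMOC2 (0.48), which encode further secreted proteins. HAPLN1 was in place 13 (0.65) and HAPLN3 in place 18 (0.74) by distance from ACAN, and VCAN in place 8510 (1.92). The genes closest to VCAN were SLC8A1, a sodium and calcium exchanger (0.21), ASAH1, a lysosomal ceramidase (0.22), GPM6B, a membrane glycoprotein (0.22), and F8, coagulation factor VIII (0.23). CD44 was in place 14 by distance from VCAN (0.32), and HAPLN1, its neighbour on the chromosome, in place 9314 (1.55). The distances rest on the same 8 libraries and their shared scaling, and describe these libraries.

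Among hyaluronan synthases, HAS2, regarded as the main synthase of chondrocytes, was measured higher in 3 of the 4 osteoarthritis libraries than in any control, without passing the test. For HAS1 all osteoarthritis libraries lay within the control range, and the fold changes of HAS1 and HAS2 were not tested against each other. HAS2 was at 4.51, 7.09, 3.25 and 15.7 CPM in controls 1 to 4 and at 27.6, 19.8, 14.7 and 15.9 CPM in osteoarthritis replicates 1 to 4. The groups overlapped, with control 4 between osteoarthritis replicates 3 and 4. The log2 fold change was 1.34 ± 0.47 (SE; edgeR adjusted p = 0.24), and without control 4 it was 1.99 and passed (edgeR adjusted p = 0.043, with 0.927% of genes called in that fit). Controls 1 and 3, lowest for HAS2, were also lowest for osteoclast and macrophage markers, and with both left out the log2 fold change was 0.78. Their part in the result was not tested.

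HAS1 was the steadiest gene of the set, with a 1.62-fold range over the 8 libraries. It was at 6.11, 5.04, 7.39 and 8.19 CPM in controls 1 to 4 and at 5.84, 5.42, 6.12 and 5.13 CPM in osteoarthritis replicates 1 to 4, with no osteoarthritis library outside the control values. Against controls the log2 fold change was -0.25 ± 0.21 (SE; edgeR adjusted p = 0.62). Scaled by library size alone it was 0.33, below the 0.65 by which the median of all genes then moved.

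HAS3 was at 0 counts in all 4 controls and at 13, 0, 13 and 0 counts in osteoarthritis replicates 1 to 4. Over the osteoarthritis group this is 0.262 CPM, or 4.47-fold the 0.0586 CPM that 3 counts over the control group would give. That comparison allows for counting error in the controls only. The 26 osteoarthritis counts were taken as measured, and the spread between libraries is not covered. The gene was listed at 0 in osteoarthritis replicates 2 and 4 as well.

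The make-up of the synthase transcripts did not overlap between groups. The TPM ratio of HAS2 to HAS1 was 0.727, 1.28, 0.424 and 1.83 in controls 1 to 4 and 4.58, 3.63, 2.38 and 3.05 in osteoarthritis replicates 1 to 4. All 4 osteoarthritis libraries were above all controls, with geometric means of 0.92 and 3.32, and this ratio was not tested. Of the gene ratios computed here it was the only one whose groups did not overlap. Shares of the synthases were planned at the outset, while this ratio was not, and how often ratios of other gene pairs separate the groups was not computed. In shares of the summed TPM of the synthases, HAS2 made up 29.8% to 64.7% in controls and 67.5% to 78.4% in osteoarthritis. These shares rest on 32 to 207 counts for HAS1 and 37 to 595 counts for HAS2 per library.

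**Figure D3:**
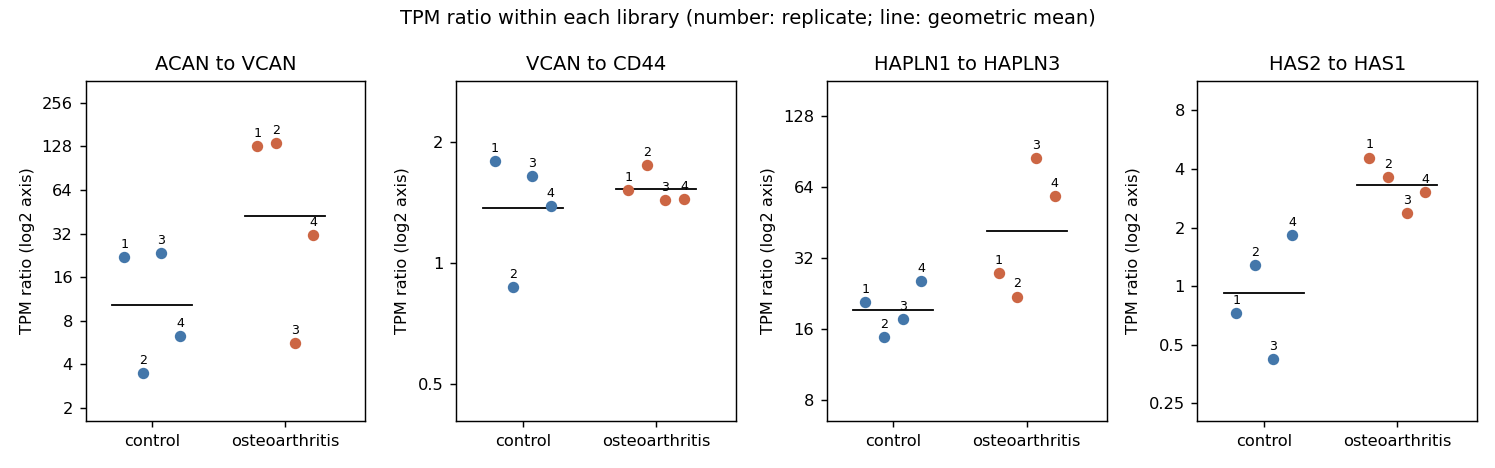
Each panel gives the TPM ratio of a gene pair within each library (log2 vertical axis), with replicate numbers at the points and a line at the geometric mean of each group. The ratio of ACAN to VCAN overlaps between groups because of osteoarthritis replicate 3 (5.62), and that of VCAN to CD44 is nearly level. Of the ratios computed here only that of HAS2 to HAS1 separates the groups (up to 1.83 against 2.38 and above), and it was not tested.

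Other genes of hyaluronan and proteoglycan metabolism were read from 5 lists, beside a median log2 fold change of 0.0049 over all 16020 genes (0.65 when scaled by library size alone). In the list of enzymes and transporters that supply sugar nucleotides to hyaluronan and chondroitin chains, all 9 tested members had a log2 fold change above 0, as did 8071 of the 16020 genes, and the median was 0.69 (1.39 when scaled by library size alone). The edgeR test called 1 of them, against 0.225% of all genes in that direction, and 5 were higher at an unadjusted p under 0.05, against 7.52% of all genes. DESeq2 called 3, with 5.22% of all genes called, and limma-voom 1, with 0.743% called. The gene that edgeR called was SLC35D1, which carries UDP-sugars into the endoplasmic reticulum and is required for chondroitin sulphate synthesis in growing cartilage. It was at 21.8, 16.5, 18.1 and 24.5 CPM in controls 1 to 4 and at 88.8, 82.8, 41.8 and 54.8 CPM in osteoarthritis replicates 1 to 4. All osteoarthritis libraries were above all controls, as for 5.69% of all genes tested, and the log2 fold change was 1.72 ± 0.27 (SE; edgeR adjusted p = 0.037). With a library left out the call held only without control 4 or osteoarthritis replicate 3, with a fold change of 1.56 to 1.87 and edgeR adjusted p of 0.031 to 0.12. UGP2, which makes UDP-glucose, was at 0.69 ± 0.19 (edgeR adjusted p = 0.14; DESeq2 adjusted p = 0.014). GFPT2, an entry enzyme of hexosamine synthesis, was at 1.48 ± 0.44 (edgeR adjusted p = 0.17; DESeq2 adjusted p = 0.028).

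In the list of hyaluronan breakdown, 0 of 5 tested members changed by edgeR and 2 had a log2 fold change above 0. The median was -0.13 (0.52 when scaled by library size alone). An unadjusted p under 0.05 was found for 2 higher members and 1 lower member, against 7.52% of all genes higher and 7.65% lower. DESeq2 called 1, against 5.22% of all genes, and limma-voom 0. CEMIP, which is needed for cells to depolymerise hyaluronan, was at 6.57, 39.1, 8.45 and 47.2 CPM in controls 1 to 4 and at 164, 194, 101 and 90.3 CPM in osteoarthritis replicates 1 to 4. The groups did not overlap, as was the case for 5.69% of all genes tested in that direction. Within the controls replicates 1 and 3 were the lowest, as they were for osteoclast markers, whose part was not tested. For CEMIP the log2 fold change was 2.44 ± 0.65 (edgeR adjusted p = 0.14; DESeq2 adjusted p = 0.0037). The hyaluronidase genes HYAL2 and HYAL3 were at 0.38 ± 0.17 and -1.01 ± 0.32 (edgeR adjusted p of 0.33 and 0.19).

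Among other hyaluronan receptors and binding proteins, 0 of 12 tested members changed by edgeR, DESeq2 or limma-voom, and 6 had a log2 fold change above 0. At an unadjusted p under 0.05, 2 were higher (7.52% of all genes), and the median was -0.11 (0.56 when scaled by library size alone). TNFAIP6, whose product transfers protein chains onto hyaluronan, was at 1.13 ± 0.38, and LYVE1, the hyaluronan receptor of lymphatic endothelium, at 0.92 ± 0.33 (edgeR adjusted p of 0.22 and 0.24). HABP4, named for its binding of hyaluronan, was at -0.52 ± 0.25 (edgeR adjusted p = 0.38), and at 0.11 when scaled by library size alone. Of the other lecticans and link proteins HAPLN4 alone was tested, at 0.71 ± 0.35 (edgeR adjusted p = 0.38; 0 called by any tool and 0 at an unadjusted p under 0.05).

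Among proteases that cleave aggrecan or versican, 0 of 9 tested members changed by edgeR, and 8 had a log2 fold change above 0, as did 8071 of the 16020 genes. The median was 0.54 (1.02 when scaled by library size alone). At an unadjusted p under 0.05, 1 member was higher and 1 lower, shares near those of all genes (7.52% and 7.65%). DESeq2 called 1, MMP13, against 5.22% of all genes, and limma-voom 0. MMP13, a collagenase that also cuts aggrecan, was at 2.89 ± 1.00 (edgeR adjusted p = 0.23; DESeq2 adjusted p = 0.017). It was at 19.0, 247, 21.7 and 485 CPM in controls 1 to 4 and from 1065 to 2179 CPM in osteoarthritis. Controls 1 and 3 were the lowest, as for osteoclast and osteoblast markers, whose part was not tested, and with both left out the log2 fold change of MMP13 was 2.01. The aggrecanase genes ADAMTS1 and ADAMTS15 were at 0.67 ± 0.32 and -1.34 ± 0.57 (edgeR adjusted p of 0.37 and 0.31), the latter on 99 counts over the controls and 70 over osteoarthritis.

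**Figure D4:**
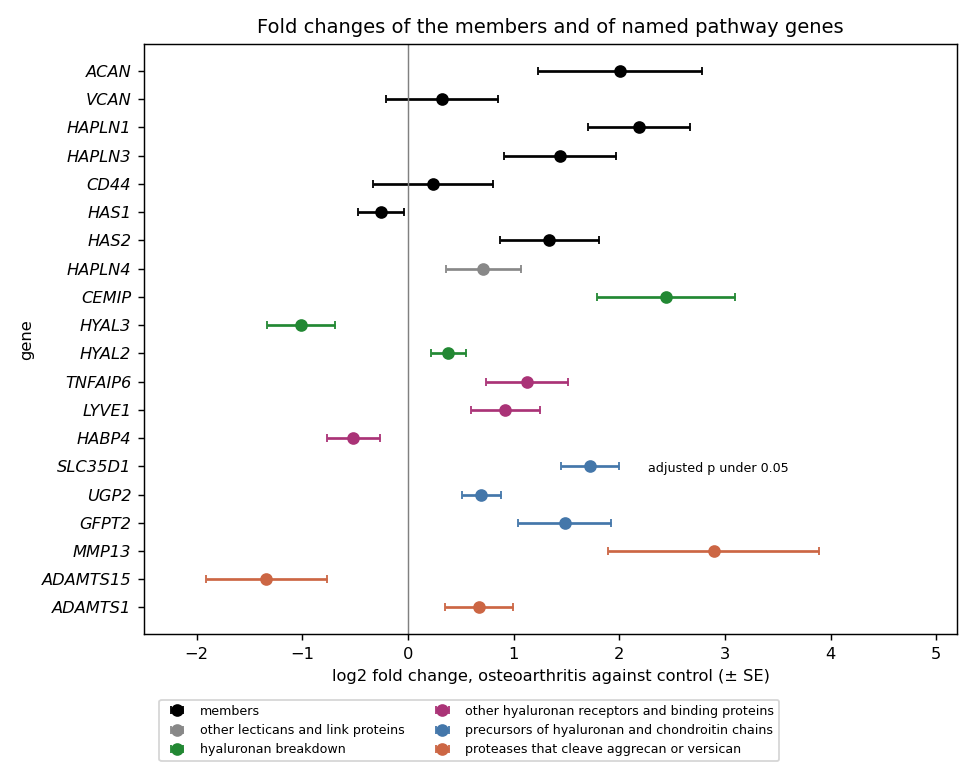
Points give the log2 fold change of osteoarthritis against control (horizontal axis) with its SE for the 7 tested genes of the set and for the named genes of the 5 lists, coloured by list. SLC35D1, at 1.72, is the gene that passed the test over all genes, while MMP13, CEMIP, HAPLN1 and ACAN, all at or above 2.0, did not.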

How the data were processed

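Per the labels' protocols, ribosomal RNA was depleted and the library kit preserved strand. The deposited table gives estimated counts and TPM per gene, log2 TPM and effective lengths credited to Salmon in its header. The submitters' processing notes name Salmon 1.1.0, STAR 2.7.9a, DESeq2 1.26.0, Trim Galore 0.6.7, MultiQC 1.13, StringTie 2.1.0 and the build Sscrofa11.1, without roles. The deposited log2 TPM values were not used, and the deposited TPM equal counts per effective length, rescaled to a common sum (largest relative difference 2.5e-14).

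Estimated counts, already whole, were rounded, filtered by filterByExpr, scaled by TMM and tested by quasi-likelihood F (robust) in edgeR 4.0.16 (R 4.3.3), with group as the only term. Benjamini-Hochberg adjustment ran over 16020 genes. The SE of a log2 fold change is its size over the root of F. Alternatives used DESeq2 1.42.0, limma 3.58.1 (voom), other scalings and filters, and libraries left out. The ratio of ACAN to VCAN was tested with scipy 1.17.1. The fit was also run on simulated counts, drawn for all libraries from a shared mean profile with seeded fold changes. Such counts lack the differences in make-up between the real libraries, so the run does not show how the fit behaves on them. Gene coordinates are RefSeq's for Sscrofa11.1.

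The genes of the set and the lists were chosen with earlier results of these data known. Of each list, up to 3 members with the lowest p were named, as were the 4 genes nearest to ACAN and to VCAN.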

Additional observations from a re-analysis of the deposited data

How the results depend on the processing

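The 2.03 difference in the log2 ratio of ACAN to VCAN stayed above 0 in all 14 alternatives (1.46 to 3.17). An exact p under 0.05 was possible with counts not divided by length and with a pseudocount of 1 TPM. It was not reached there (p = 0.14 in both, exact permutation test). In the others, with fewer samples, the block or the difference of medians, it could not have been reached. For the medians this is because several assignments share the most extreme difference. ACAN (1.63 to 3.17) and HAPLN3 (1.04 to 1.92) kept direction and stayed uncalled in 18. HAPLN1 was called by DESeq2 (2.16) and with library size alone (2.64), and lay between 1.91 and 2.39 with a library left out. HAS2 lay between 1.09 and 1.99, VCAN between -0.41 and 0.61 and CD44 between -0.55 and 0.52 with a library left out. CD44 was also at -0.11 by limma-voom, -0.12 with the replicate number as a block and -0.11 with controls 1 and 3 left out. With library size alone HAS1 turned to 0.33 and HABP4 to 0.11, below the shift of 0.65 in all genes. Changed genes, 99 in all, numbered 214 with library size alone (186 higher, 28 lower), 836 by DESeq2 (381 higher, 455 lower) and 31 with controls 1 and 3 summed (6 higher, 25 lower). With a library left out there were 14 to 152 (2 to 76 higher, 12 to 76 lower), and with controls 1 and 3 left out 21 were higher, an alternative chosen after seeing the data. The cause of these shifts was not tested. With the replicate number as a block edgeR called 1 gene, lower, and 0 higher (an unadjusted p under 0.05 in 851 higher and 815 lower genes). The labels state no pairing of same-numbered samples. The correlation of their deviations was -0.34 to -0.018, and 0 of 8 libraries correlated best with its own number. Whether such samples share more than a number, such as a processing batch, cannot be told from these values. The block gave p = 0.25 for the ratio by exact sign flips, whose smallest p is 0.125. SLC35D1 lost its call with the block (log2 fold change 1.68, edgeR adjusted p = 0.25), with controls 1 and 3 summed (1.72, 0.11) or left out (1.73, 0.075), at fold changes close to the 1.72 with all libraries. Counts of 32 to 207 for HAS1 and 29 to 681 for HAPLN3 per library limit the precision of their levels.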

Other observations

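The deposited effective lengths, which for a gene depend on which of its transcripts are counted and on the fragment sizes of the library, differed between libraries for some genes of the set. For HAPLN3 the effective length was 1492, 1394, 1423 and 1674 bases in controls 1 to 4 and 1499, 1299.8, 2094 and 1834 bases in osteoarthritis replicates 1 to 4. It was longest in osteoarthritis replicates 3 and 4, the same libraries in which the TPM ratio of HAPLN1 to HAPLN3 was highest. Before division by length, counts of HAPLN1 and HAPLN3 were 38199 and 208 in replicate 3 and 98975 and 681 in replicate 4. They were 55601 and 661 in replicate 1 and 26480 and 344 in replicate 2. The part of length in the ratio was not tested. For VCAN the effective length was shortest in osteoarthritis replicates 1 and 2, at 13520.1 and 13593 bases, where VCAN was lowest, and longest in osteoarthritis replicate 3, at 14550.0 bases, where VCAN was highest. The effective length of HAPLN1 stayed between 4522 and 4586 bases in all 8 libraries. Transcript-level values were not analysed here.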
